A study of Arabidopsis thaliana with 12 samples.

Results

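The comparison described here is trb45 line 1 against wild type in Arabidopsis thaliana seedlings. Its members were chosen by the labels and make up 6 of the 12 RNA-seq libraries of the study, 3 from trb45 line 1 and 3 from wild-type Col-0. Line 1 is one of 2 independently labelled lines of the double mutant of TRB4 and TRB5, and the labels do not state which alleles it carries. The other 6 libraries came from trb45 line 2 and from trb123, the triple mutant of the related genes TRB1, TRB2 and TRB3. All plants were 7-day-old whole seedlings without any treatment. The seeds had been stratified in the dark for 2 days at 4 °C and then grown on Murashige and Skoog plates with 1% sucrose at 23 °C, with 16 h of light and 8 h of darkness. Stranded libraries were made from polyA RNA, and the expression level of each gene was deposited as FPKM, that is, fragments per kilobase of transcript, scaled to the number of mapped fragments. The labels do not say that replicates came from separate cultures, so the p-values measure only the spread between these libraries.

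TRB proteins are plant proteins with a Myb DNA-binding domain and a histone H1-like domain. They bind telomere repeats and also short telomere-like motifs, called teloboxes, in the promoters of many genes. TRB1, TRB2 and TRB3 are known to bring Polycomb repressive complex 2 (PRC2), which places the repressive mark H3K27me3, to such sites. The comparison of line 1 with wild type asks which genes depend on TRB4 and TRB5 for their level in seedlings.

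Replicate 3 of line 1 stood apart from replicates 1 and 2. Across the 11826 genes compared, its log2 levels correlated with those of replicates 1 and 2 at Pearson r = 0.959 and 0.958, against 0.978 between replicates 1 and 2. With the 3 trb45 line 2 libraries the correlations were 0.985, 0.989 and 0.972. The wild-type libraries correlated among themselves at 0.991, 0.993 and 0.99. Genes are not independent replicates, and these values only describe the libraries. Calls and counts that depended strongly on this library are also given without it. Depth estimated from the size of the FPKM steps was similar in all 6 libraries, between 22604000 and 24193000 fragments. The libraries had the markers of green seedlings: RBCS1A, the small subunit of Rubisco, had 27317.11 to 32728.73 FPKM in line 1 and 27303.33 to 29562.66 FPKM in wild type. The groups overlapped for RBCS1A but not for the green markers LHCB1.1 and RCA, which were higher in line 1. LHCB1.1 had 4662.62, 4979.85 and 5028.89 FPKM in line 1 and 4334.8, 4004.32 and 4171.66 FPKM in wild type. RCA had 4717.91, 4107.29 and 4921.17 FPKM in line 1 and 3939.64, 3548.01 and 3648.26 FPKM in wild type. The pollen markers VGD1, VGDH1 and MGH3 were not listed for line 1 or wild type.

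TRB4 and TRB5 themselves were both lower in line 1. TRB5 (AT1G72740, chr1:27380260-27382924, minus strand of TAIR10.1) had 3.39, 2.85 and 3.51 FPKM in the line 1 libraries, against 12.54, 11.82 and 11.04 FPKM in the wild-type libraries. Its mean was 3.25 ± 0.352 FPKM in line 1 and 11.8 ± 0.75 FPKM in wild type (SD, n = 3 each), and its log2 fold change was -1.59 ± 0.10 (SE), with a limma adjusted p = 2.17e-06. All 3 line 1 libraries lay far below all 3 wild-type libraries, and RNA of the gene was still measured in each of them. TRB4 (AT1G17520, chr1:6024636-6027565, minus strand) had 4.58, 5.34 and 2.96 FPKM in line 1 and 11.04, 8.37 and 8.16 FPKM in wild type. Its mean was 4.29 ± 1.22 FPKM in line 1 and 9.19 ± 1.61 FPKM in wild type (SD, n = 3 each), with a log2 fold change of -0.96 ± 0.18 and a limma adjusted p = 0.00397. Replicate 3 was the lowest library for TRB4, and without it the fold change was -0.77. The exact permutation test (two-sided) gave p = 0.1 for each gene, the smallest value that 3 against 3 libraries allow. TRB4 overlaps TIM23-1, a gene of the mitochondrial import machinery on the opposite strand, and the use of strand in the counting is not given in the sources used here. TIM23-1 had 8.66, 9.64 and 5.39 FPKM in line 1 and 12.95, 10.76 and 13.11 FPKM in wild type (log2 fold change -0.61, limma adjusted p = 0.032), a call that was lost without replicate 3, wild-type replicate 1 or wild-type replicate 3.

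The other TRB genes did not pass the test. TRB1 had 9.16, 12.32 and 9.47 FPKM in line 1 and 9.89, 11.16 and 9.76 FPKM in wild type, with a limma adjusted p = 0.99. TRB2 had 9.58, 11.39 and 10.38 FPKM in line 1 and 10.49, 12.31 and 13.27 FPKM in wild type, with a log2 fold change of -0.18 and a limma adjusted p = 0.25. TRB3 had 6.36, 9.38 and 5.28 FPKM in line 1 and 6.34, 8.65 and 7.43 FPKM in wild type, with a log2 fold change of -0.11 and a limma adjusted p = 0.704. The groups overlapped for all 3 genes. Among the 10 genes next to TRB4, 4 passed the test (TIM23-1, HAB2, HLL and NF-YA8), against 18.2% of all tested genes. All 4 calls were lost without replicate 3. Among the 10 genes next to TRB5, HAB1, a phosphatase that dampens abscisic acid signalling, fell to 14.79, 14.96 and 13.22 FPKM in line 1, against 19.94, 18.86 and 20.14 FPKM in wild type (log2 fold change -0.43, limma adjusted p = 0.0053).

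Of the 18700 genes tested, 3397 (18.2%) differed between line 1 and wild type at a limma adjusted p under 0.05. Of these, 1453 (7.77%) were higher and 1944 (10.4%) were lower in line 1, and the median log2 fold change of all tested genes was -0.05. Higher genes made up 42.8% of the calls on the FPKM scale and 55.1% after median-ratio scaling, so the balance of rises and falls depends on the scaling. The changes were mostly small. On the log2(FPKM + 1) scale 358 genes (1.91%) were called and changed at least 2-fold, with 230 (1.23%) higher and 128 (0.684%) lower. The groups did not overlap for 3320 of the called genes (17.8% of all tested), 7.49% being higher and 10.3% lower, while 6339 genes (33.9%) had groups that did not overlap whether called or not. Without replicate 3 of line 1, 3289 genes (17.6%) were called, of which 2587 were among the 3397, and with replicate 3 as the only line 1 library 3669 genes (19.6%) were called. For that last count replicate 3 was set against wild type on its own. A single library has no spread of its own, so its spread was assumed to be like that of the other libraries. The count of 3669 is therefore not comparable with 3397 and 3289, and no conclusion is drawn from it. Called, apart in all libraries and also called without replicate 3 were 2566 genes (13.7%), with 1109 (5.93%) higher and 1457 (7.79%) lower. A set of 177 genes (0.947%) was called and lay at least 2-fold beyond the wild-type mean in each of the 3 line 1 libraries, with 124 (0.663%) higher and 53 (0.283%) lower. The number of calls rested on single wild-type libraries more than on any line 1 library: it was 1721 without wild-type replicate 1 and 1602 without wild-type replicate 3. A fit on the 6 line 1 and wild-type libraries alone, in place of all 12, called 1797 genes, and is named the 6-library fit below. The counts for gene lists and families that follow are from the fit with all 12 libraries unless stated. They are to be read against the shares over all tested genes, 7.77% higher and 10.4% lower. Counts from other fits are to be read against the calls of the same fit over the 18700 genes. Without line 1 replicates 1, 2 and 3 in turn these were 1892, 1046 and 1412 higher and 2291, 1623 and 1877 lower. Without wild-type replicates 1, 2 and 3 in turn they were 796, 1073 and 794 higher and 925, 1424 and 808 lower. The 6-library fit called 924 higher and 873 lower.

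**Figure D1:**
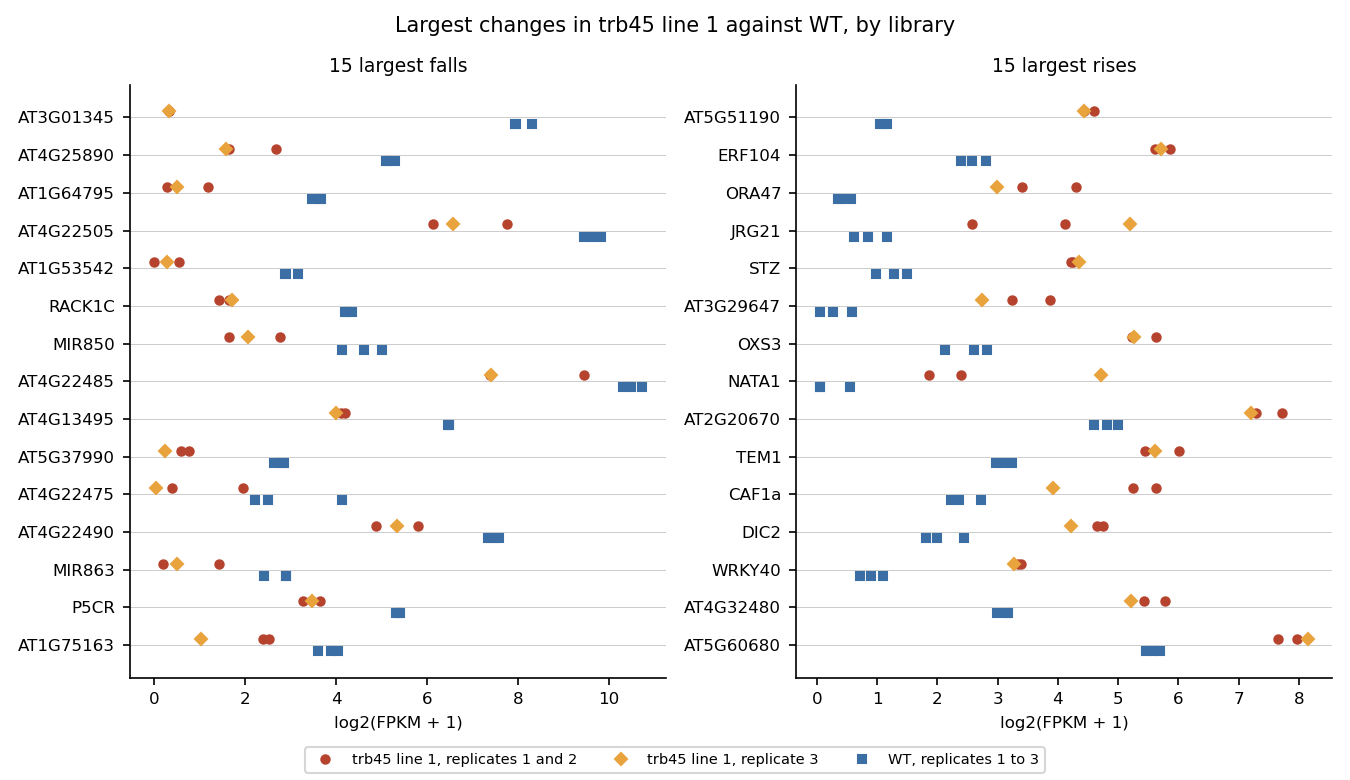
The 15 genes that fell most and the 15 that rose most in line 1, among genes called with and without replicate 3, apart in all libraries and averaging 5 FPKM or more in either group. Each point is 1 library on the log2(FPKM + 1) axis, with line 1 replicates 1 and 2 as red circles, line 1 replicate 3 as orange diamonds and wild type as blue squares. The line 1 and wild-type points do not overlap for AT3G01345, which lies at 0.26 FPKM in all 3 line 1 libraries.

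The gene that fell most was AT3G01345 (chr3:129138-130749, plus strand), which encodes an uncharacterized protein. It had 0.26 FPKM in each line 1 library, against 247.14, 244.86 and 315.72 FPKM in wild type (log2 fold change on the log2(FPKM + 1) scale -7.73 ± 0.11, limma adjusted p = 1.2e-13). The locus was thus near 0 in line 1 and among the well expressed genes in wild type. In trb45 line 2 it had 0.76, 0.54 and 0.46 FPKM.

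A RACK1 gene and a ribosomal protein gene were among the 15 largest falls. RACK1C (chr3:6210878-6212551, minus strand), a scaffold protein on the small ribosomal subunit, had 2.14, 1.68 and 2.29 FPKM in line 1, against 18, 17.4 and 19.43 FPKM in wild type (log2 fold change -2.67 ± 0.20, limma adjusted p = 8.97e-06). AT4G25890, a 60S acidic ribosomal protein of the stalk (chr4:13159381-13160565, minus strand), had 2.11, 5.4 and 1.98 FPKM in line 1 and 33.33, 37.98 and 34.19 FPKM in wild type (-3.21 ± 0.23, limma adjusted p = 6.93e-06). This gene overlaps PUM6 on the opposite strand, so its level is less certain. TCTP, the translationally controlled tumour protein, which promotes growth, also fell and had 513.94, 663.89 and 526.02 FPKM in line 1 and 1508.24, 1541.56 and 1726.14 FPKM in wild type (-1.49 ± 0.13, limma adjusted p = 2.66e-05). The line 1 and wild-type libraries were well apart for all 3 genes. The other RACK1 genes, RACK1A (ATARCA, -0.23) and RACK1B (-0.32), did not pass the test.

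A non-coding locus on chromosome 4 was also low. AT4G13495 (chr4:7842967-7846774, plus strand) had 17.32, 16.29 and 14.88 FPKM in line 1, against 86.4, 87.7 and 88.21 FPKM in wild type (log2 fold change -2.37 ± 0.11, limma adjusted p = 1.52e-07). In trb45 line 2 the locus had 34.63, 39.89 and 38.16 FPKM, between line 1 and wild type. The microRNA loci MIR850 (-2.43 ± 0.28, limma adjusted p = 0.000226) and MIR863 (-2.03 ± 0.26, limma adjusted p = 0.000404) lie in the same region on the same strand, so the 3 values may count the same fragments. P5CR, the last enzyme of proline synthesis, had 11.45, 8.72 and 10.07 FPKM in line 1 and 40.64, 38.84 and 41.43 FPKM in wild type (-1.91 ± 0.12, limma adjusted p = 2.17e-06). AT5G37990, a gene of the S-adenosylmethionine-dependent methyltransferase family, had 0.51, 0.69 and 0.18 FPKM in line 1 and 6.17, 6.01 and 5.24 FPKM in wild type (-2.23 ± 0.23, limma adjusted p = 7.93e-05). The short genes AT1G64795 (-2.94) and AT1G53542 (-2.71), both for uncharacterized proteins, were also near 0 in line 1.

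A cluster of lipid-transfer protein genes on chromosome 4, AT4G22470 to AT4G22520, was lower, and it was singled out after its values were seen. Of its 9 tested genes, 7 fell and none rose, with a median log2 fold change of -1.63, against 10.4% lower and a median of -0.05 over all tested genes. AT4G22505 had 214.05, 68.55 and 93.8 FPKM in line 1 and 696.36, 794.99 and 901.59 FPKM in wild type (-2.82 ± 0.48, limma adjusted p = 0.00246). AT4G22490 had 54.66, 28.25 and 39.65 FPKM in line 1 and 178.54, 161.66 and 190.29 FPKM in wild type (-2.13 ± 0.38, limma adjusted p = 0.00285). Replicate 1 was the highest line 1 library for both genes and still lay below all wild-type libraries. AT4G22485 (-2.42), AT4G22475 (-2.16), AT4G22517 (-1.63), AT4G22495 (-1.52) and AT4G22520 (-1.45) fell as well. AT4G22470, at one end, had 137.54, 141.6 and 71.44 FPKM in line 1 and 47.26, 88.61 and 69.61 FPKM in wild type and did not pass the test (0.74, limma adjusted p = 0.118). Without replicate 3 it was called higher, with a log2 fold change of 1.06. AT4G22475 and AT4G22495, which are annotated as uncharacterized proteins, lie across AT4G22485 and AT4G22505 on the opposite strand, so fragments of these pairs cannot be told apart if strand was not used.

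Several of the genes that fell in every line 1 library have a telobox just upstream of their annotated start. The motif searched was AAACCCTA on both strands, from 250 bases before to 50 bases after the start. It was present in 1021 of the 18613 tested genes with a window (5.49%). Of the 52 genes with a window that fell at least 2-fold in each line 1 library, 9 (17.3%) held it, against 3 of the 124 that rose by as much (2.42%). All 52 and all 124 were also called without replicate 3. They had been chosen for being called and 2-fold in each library, so this is no separate test of them. Over all genes with the motif the difference was small: 121 (11.9%) were called lower and 56 (5.48%) higher, with a median log2 fold change of -0.09, against 10.4% lower and 7.8% higher over all windows. Without wild-type replicate 1 these counts were 68 lower (6.66%) and 23 higher (2.25%), against 4.95% lower and 4.27% higher over all windows. Without wild-type replicate 3 they were 58 (5.68%) and 26 (2.55%), against 4.32% and 4.26%. Without wild-type replicate 2 they were 97 (9.5%) and 30 (2.94%), against 7.61% and 5.76%. In the 6-library fit they were 70 (6.86%) and 23 (2.25%), against 4.66% and 4.96%. A match is a run of letters and not a measured binding site. The 250 bases upstream of 6 of the 9 genes that fell are shown because they carry the motif upstream of and close to the start, in the RefSeq TAIR10.1 sequence of the gene's own strand, with the telobox in capitals.
AT4G13495, chr4:7842717-7842966, plus strand: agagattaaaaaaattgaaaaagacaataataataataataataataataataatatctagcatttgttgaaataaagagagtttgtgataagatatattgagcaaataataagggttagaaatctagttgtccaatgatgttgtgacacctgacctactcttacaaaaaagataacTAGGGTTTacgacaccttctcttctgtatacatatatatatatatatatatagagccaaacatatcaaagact
AT4G13575, chr4:7893762-7894011, minus strand: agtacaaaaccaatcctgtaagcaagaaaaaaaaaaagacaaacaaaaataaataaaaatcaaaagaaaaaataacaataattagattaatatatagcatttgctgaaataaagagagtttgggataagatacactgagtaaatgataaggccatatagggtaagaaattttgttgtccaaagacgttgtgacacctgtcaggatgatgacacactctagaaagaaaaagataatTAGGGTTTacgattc
TCTP, chr3:5670843-5671092, minus strand: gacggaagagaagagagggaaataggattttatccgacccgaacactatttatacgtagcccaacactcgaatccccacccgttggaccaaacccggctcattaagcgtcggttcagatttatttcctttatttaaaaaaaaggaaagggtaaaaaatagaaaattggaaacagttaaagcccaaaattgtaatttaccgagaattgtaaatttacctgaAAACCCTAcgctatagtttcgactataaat
AT3G24830, chr3:9064275-9064524, plus strand: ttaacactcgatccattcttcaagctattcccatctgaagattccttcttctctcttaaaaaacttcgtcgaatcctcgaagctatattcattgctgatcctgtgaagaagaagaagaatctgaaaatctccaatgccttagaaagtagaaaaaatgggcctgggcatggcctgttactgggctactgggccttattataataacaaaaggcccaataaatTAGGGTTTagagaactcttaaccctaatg
AT5G65860, chr5:26349057-26349306, minus strand: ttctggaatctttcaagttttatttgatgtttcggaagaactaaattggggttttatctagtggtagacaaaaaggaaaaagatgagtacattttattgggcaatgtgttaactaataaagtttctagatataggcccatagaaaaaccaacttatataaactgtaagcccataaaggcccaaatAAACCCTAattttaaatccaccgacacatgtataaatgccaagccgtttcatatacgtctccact
AT2G35750, chr2:15030349-15030598, minus strand: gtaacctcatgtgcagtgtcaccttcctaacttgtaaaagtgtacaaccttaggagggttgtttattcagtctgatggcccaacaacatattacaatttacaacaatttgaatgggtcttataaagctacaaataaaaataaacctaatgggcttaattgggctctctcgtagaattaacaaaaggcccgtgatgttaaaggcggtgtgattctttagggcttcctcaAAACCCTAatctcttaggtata

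The upstream sequences of AT4G13495 and AT4G13575, a gene for an uncharacterized protein on the same chromosome, were much alike: a local alignment had 121 identical bases in 154 columns (78.6%). AT4G13575 had 0.18, 0.1 and 0.05 FPKM in line 1 and 2.39, 1.55 and 2.37 FPKM in wild type (log2 fold change -1.47, limma adjusted p = 1.49e-05). AT3G24830, which encodes ribosomal protein L13, had 39.84, 41.52 and 37.0 FPKM in line 1 and 86.22, 85.84 and 81.94 FPKM in wild type (-1.08 ± 0.16, limma adjusted p = 0.000986). AT5G65860, an ankyrin repeat protein, had 0.96, 1.45 and 1.22 FPKM in line 1 and 5.84, 5.75 and 5.44 FPKM in wild type (-1.60, limma adjusted p = 6.8e-06). AT2G35750 had 2.39, 3.12 and 2.78 FPKM in line 1 and 7.46, 7.09 and 9.08 FPKM in wild type (-1.24, limma adjusted p = 0.000246). The remaining 3 of the 9 were EXPA15, an expansin that loosens cell walls (-1.66), PRH75, a DEAD-box RNA helicase (-1.45), and the small nucleolar RNA gene AT4G39363 (-1.50). None of the 9 genes had overlapping groups. All 9 had been chosen for lying at least 2-fold beyond the wild-type mean in each line 1 library. Groups that do not overlap therefore add no evidence.

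The largest rises were led by transcription factors of stress and hormone responses, first of all the ethylene response factor (ERF) family. Of a list of 10 ERF genes, 7 were tested and all 7 rose, with a median log2 fold change of 1.92, against 7.77% of all tested genes. AT5G51190, an ERF gene, had 20.53, 23.22 and 20.72 FPKM in line 1, against 1.06, 1.15 and 1.23 FPKM in wild type (3.39 ± 0.25, limma adjusted p = 8.97e-06). ERF104, which acts in immunity downstream of a MAP kinase, had 47.72, 56.79 and 51.25 FPKM in line 1 and 4.96, 5.99 and 4.27 FPKM in wild type (3.13 ± 0.29, limma adjusted p = 4.14e-05). Both genes were at nearly the same level in the 3 line 1 libraries, replicate 3 included. ERF5 (2.00), ERF6 (1.92), ERF1A (ERF-1, 1.87) and ERF2 (1.56), all activators or regulators of stress and defence genes, rose by less. ORA59, which joins the ethylene and jasmonate signals, had 1.8, 3.24 and 3.7 FPKM in line 1 and 1.18, 1.55 and 1.25 FPKM in wild type (0.72, limma adjusted p = 0.0354), and its call was lost without line 1 replicate 2 or 3 or any one wild-type library. In trb45 line 2 AT5G51190 had 9.03, 11.59 and 7.29 FPKM.

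Stress zinc finger and WRKY genes rose with them. Of 8 tested C2H2 zinc finger genes 6 rose and none fell, against 7.77% of all genes higher, with a median log2 fold change of 0.71. STZ (ZAT10), a repressor induced by salt, cold and drought, had 17.59, 18.04 and 19.5 FPKM in line 1 and 0.98, 1.83 and 1.43 FPKM in wild type (3.02 ± 0.29, limma adjusted p = 5.94e-05). ZAT12 (RHL41), a factor of the response to reactive oxygen, had 4.42, 5.06 and 4.89 FPKM in line 1 and 1.78, 1.94 and 0.99 FPKM in wild type (1.19, limma adjusted p = 0.00437). Of 13 tested WRKY genes of defence and stress 7 rose and none fell, against the same 7.77%, with a median of 0.63. WRKY40, a regulator of defence and abscisic acid responses, had 9.14, 9.51 and 8.68 FPKM in line 1 and 0.64, 0.87 and 1.15 FPKM in wild type (2.43 ± 0.43, limma adjusted p = 0.00307). WRKY22, a factor of pattern-triggered immunity, had 10.71, 12.2 and 12.63 FPKM in line 1 and 3.72, 3.59 and 3.77 FPKM in wild type (1.45 ± 0.31, limma adjusted p = 0.00789). In all 4 genes the lowest line 1 library lay above the highest wild-type library. WRKY33, a key factor against fungi, had 25.85, 23.54 and 15.74 FPKM in line 1 and 12.92, 13.8 and 12.21 FPKM in wild type and did not pass the test (limma adjusted p = 0.19). The WRKY count was 4 without wild-type replicate 1 and 3 without wild-type replicate 3. Of 5 tested defence genes of the salicylic acid and camalexin pathways none was called higher, while PAD3 (-0.44) and ICS1 (EDS16, -0.30) were called lower. That count of 2 was 1 without wild-type replicate 3 and under median-ratio or quantile scaling. It was 0 without line 1 replicate 1 or 2 or wild-type replicate 1 or 2, and in the 6-library fit.

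**Figure D2:**
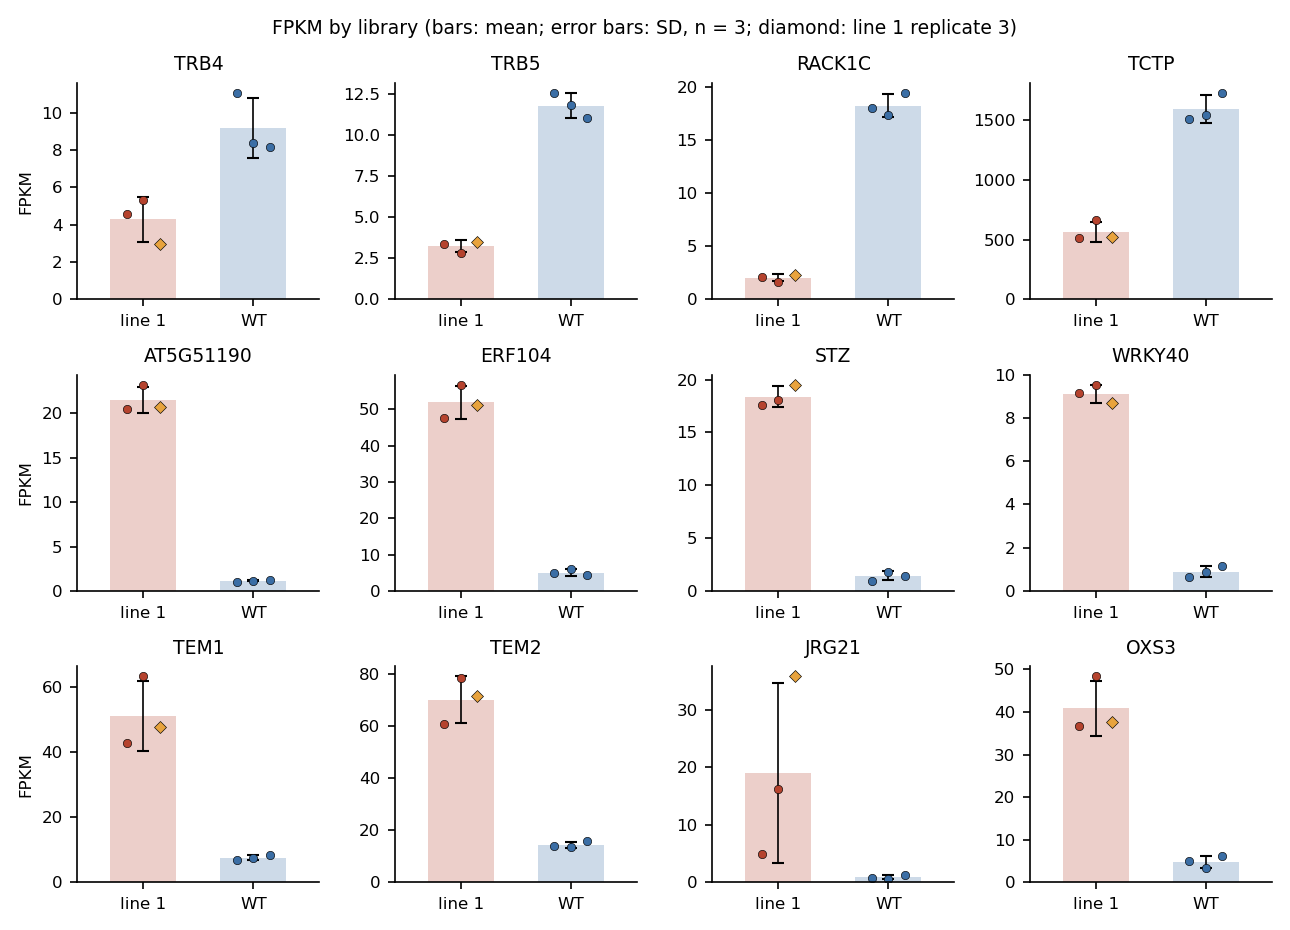
Levels of 12 genes in FPKM on linear axes that start at 0, with line 1 left of wild type. Bars are means, error bars are SD (n = 3 libraries each) and points are libraries. TRB4, TRB5, RACK1C and TCTP are lower in line 1, while AT5G51190, ERF104, STZ, WRKY40, TEM1, TEM2, JRG21 and OXS3 are higher. The 3 line 1 points of JRG21 are spread from 4.98 to 35.83 FPKM.

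Genes of other kinds were also among the 15 largest rises. OXS3, named for its role in oxidative stress tolerance, had 36.58, 48.35 and 37.6 FPKM in line 1 and 5.07, 3.38 and 6.09 FPKM in wild type (log2 fold change 2.86 ± 0.31, limma adjusted p = 0.000122). DIC2, a mitochondrial dicarboxylate carrier, had 24.18, 25.84 and 17.5 FPKM in line 1 and 2.5, 4.42 and 2.99 FPKM in wild type (2.46 ± 0.38, limma adjusted p = 0.00121). CAF1a, a deadenylase that shortens mRNA tails, had 37.05, 48.33 and 14.16 FPKM in line 1 and 4.1, 5.62 and 3.67 FPKM in wild type (2.50 ± 0.40, limma adjusted p = 0.00153). CAF1a was higher in all 3 line 1 libraries, but replicate 3 was far lower than replicates 1 and 2, and the glycine-rich protein gene AT1G07135 (1.96 ± 0.35) was too, with 14.84, 17.34 and 6.15 FPKM in line 1 and 2.48, 2.73 and 1.73 FPKM in wild type. A pair of DUF506 genes rose together: AT2G20670 (2.59 ± 0.28) had 154.62, 209.13 and 146.2 FPKM in line 1 and 27.24, 23.33 and 30.82 FPKM in wild type. AT4G32480 had 42.25, 53.78 and 36.15 FPKM in line 1 and 7.92, 6.91 and 7.99 FPKM in wild type (2.37 ± 0.24, limma adjusted p = 6.94e-05). AT5G60680 had 200.84, 248.5 and 281.78 FPKM in line 1 and 46.85, 42.83 and 50.73 FPKM in wild type (2.35 ± 0.23). These levels put all 3 genes clear of wild type in every library. AT3G29647 had 8.47, 13.55 and 5.7 FPKM in line 1 and at most 0.49 FPKM in wild type.

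Jasmonate genes changed less uniformly. Among 10 tested JAZ genes, which encode repressors of the jasmonate response, 2 rose and none fell, a share that the background of 7.77% should be read against. JAZ6 had 15.4, 22.23 and 20.46 FPKM in line 1 and 8.94, 10.84 and 9.96 FPKM in wild type (log2 fold change 0.89, limma adjusted p = 0.00285), while the call of JAZ9 (TIFY7, 0.56) was lost without line 1 replicate 2 or 3 or any one wild-type library. The JAZ count was 3 without line 1 replicate 1 and in the 6-library fit. Of 18 tested genes of jasmonate synthesis and turnover 3 rose and none fell, and without replicate 3 there were 2 rises and 1 fall. Within this list the largest rises were in a pair of jasmonate oxidases, which inactivate the hormone. JRG21 (JOX3) had 4.98, 16.3 and 35.83 FPKM in line 1 and 0.81, 0.54 and 1.25 FPKM in wild type (3.08 ± 0.47, limma adjusted p = 0.00121). AT5G05600 (JOX2) had 11.68, 22.81 and 37.93 FPKM in line 1 and 3.62, 4.56 and 4.06 FPKM in wild type (2.17 ± 0.30, limma adjusted p = 0.000658). Both genes were highest in replicate 3 and higher than wild type in all 3 libraries, and without replicate 3 the fold changes were 2.46 and 1.78. NATA1, an N-acetyltransferase known from defence, had 2.64, 4.26 and 25.38 FPKM in line 1 and 0.04, 0.04 and 0.46 FPKM in wild type (2.77 ± 0.55, limma adjusted p = 0.00559). ORA47, an AP2-type activator of jasmonate synthesis genes, had 9.59, 18.63 and 6.9 FPKM in line 1 and 0.28, 0.48 and 0.32 FPKM in wild type (3.12 ± 0.51, limma adjusted p = 0.00172).

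TEM1 and TEM2, repressors that delay flowering, rose strongly. TEM1 had 42.63, 63.25 and 47.67 FPKM in line 1 and 6.84, 7.5 and 8.43 FPKM in wild type (log2 fold change 2.59 ± 0.19, limma adjusted p = 8.97e-06). TEM2 (RAV2) had 60.6, 78.28 and 71.23 FPKM in line 1 and 13.82, 13.59 and 15.74 FPKM in wild type (2.2 ± 0.24, limma adjusted p = 0.000126). The lowest line 1 library of each gene lay several-fold above all wild-type libraries. Of the 17 tested flowering genes 4 rose and none fell, against 7.77% of all genes higher, with a median of 0.07. The other 2 rises, in the repressors FLC (0.60, limma adjusted p = 0.0453) and MAF5 (0.38, limma adjusted p = 0.0267), were lost without replicate 3, and the groups overlapped for FLC. The count of rises was also 2 without line 1 replicate 2, without any one wild-type library and in the 6-library fit. A single gene was called lower in that fit and without any one line 1 library or wild-type replicate 2. SOC1, an activator of flowering, had 9.36, 12.46 and 9.59 FPKM in line 1 and 21.67, 15.91 and 20.09 FPKM in wild type. It did not pass the test (-0.82, limma adjusted p = 0.0635), although its groups did not overlap. FT, the mobile flowering signal, was not listed for all groups.

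Some genes of auxin response rose in line 1. Of 16 tested auxin genes 8 rose and none fell, against 7.77% of all genes higher, with a median log2 fold change of 0.49. IAA29, an auxin response repressor, had 4.87, 7.21 and 4.29 FPKM in line 1 and 1.43, 1.24 and 1.39 FPKM in wild type (1.43 ± 0.20, limma adjusted p = 0.000658). IAA2, of the same family, had 64.11, 74.46 and 62.94 FPKM in line 1 and 31.52, 34.23 and 29.31 FPKM in wild type (1.06 ± 0.15, limma adjusted p = 0.000851). Line 1 was above wild type in every library for both genes. Without wild-type replicate 3 the count of rises was 3, and without line 1 replicate 1 there were 9 rises and 1 fall.

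The XTH genes, which encode xyloglucan endotransglucosylase/hydrolases that cut and rejoin a hemicellulose of the cell wall, were singled out after their values were seen. Of 26 tested members 15 rose and none fell, against 7.77% of all genes higher, with a median log2 fold change of 0.66, and without replicate 3 the count was 13 with a median of 0.60. XTH24 had 141.03, 182.04 and 128.69 FPKM in line 1 and 51.23, 61.32 and 52.61 FPKM in wild type (1.42, limma adjusted p = 2.43e-05). XTH4 had 176.24, 174.62 and 171.74 FPKM in line 1 and 85.09, 92.27 and 79.68 FPKM in wild type (1.02, limma adjusted p = 2.66e-05). XTR6 (1.82), XTH18 (1.81), XTH17 (1.64), TCH4 (1.26) and XTH33 (1.24) also rose. XTH20 (-0.36) did not pass the test. The expansins, which loosen walls, did not move one way: of 21 tested 6 rose, among them EXLA2 (1.32) and EXLA1 (1.27), and 2 fell, with a median of 0.14. The falls were EXPA4 (-0.73) and EXPA15, which had 4.92, 4.26 and 2.66 FPKM in line 1 and 14.77, 12.69 and 15.55 FPKM in wild type (-1.66, limma adjusted p = 0.000268). The count of expansin rises was 4 without line 1 replicate 3, 3 without line 1 replicate 1 or wild-type replicate 2, and 2 without line 1 replicate 2, wild-type replicate 1 or wild-type replicate 3.

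**Figure D3:**
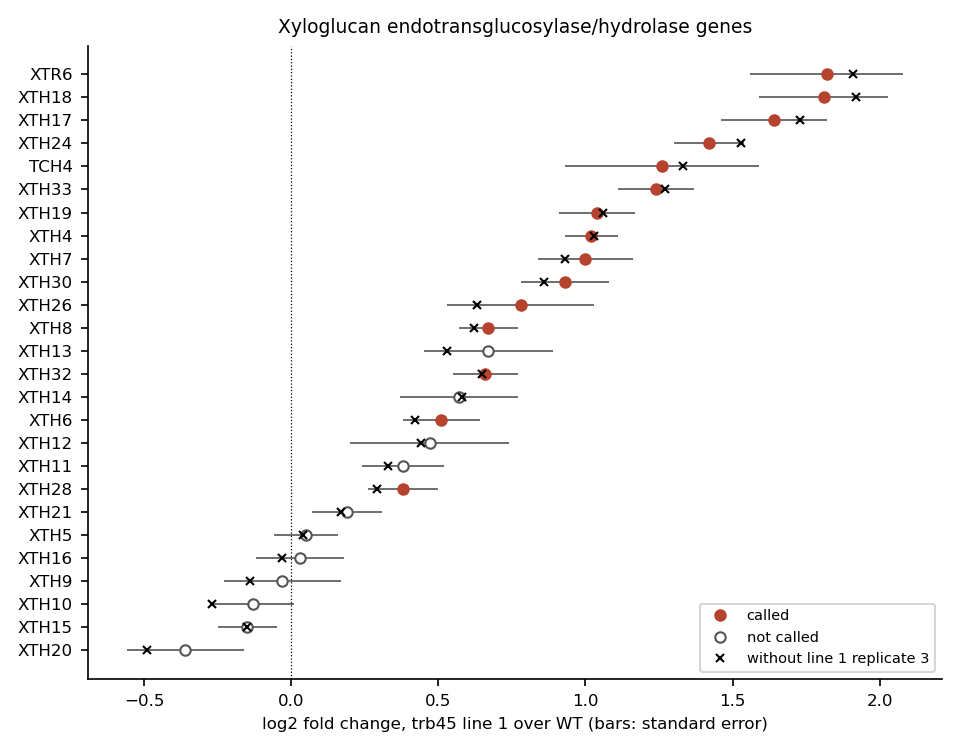
Log2 fold change (line 1 over wild type, log2(FPKM + 1) scale) of the 26 tested XTH genes, with SE as error bars. Filled points passed the test, and crosses give the value without line 1 replicate 3. All 15 that passed are to the right of 0, from XTR6 at 1.82 downwards.

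More aquaporin and sugar starvation genes rose than fell. Of 18 tested aquaporin genes 10 rose and 1 fell, against 7.77% higher and 10.4% lower over all genes, with a median log2 fold change of 0.35. PIP2;4, a plasma membrane water channel, had 24.84, 32.76 and 38.33 FPKM in line 1 and 10.17, 10.67 and 9.78 FPKM in wild type (1.54 ± 0.16, limma adjusted p = 0.000106). TIP2;1 (DELTA-TIP), a tonoplast channel for water and ammonium, had 1104.72, 1075.89 and 1139.97 FPKM in line 1 and 624.45, 607.96 and 704.16 FPKM in wild type (0.78 ± 0.09, limma adjusted p = 0.000274). The count of aquaporin rises was 5 without line 1 replicate 2, wild-type replicate 1 or wild-type replicate 3, 6 without wild-type replicate 2 and 4 in the 6-library fit, and none fell without any one of those 4 libraries. Of 8 tested genes induced by sugar starvation 5 rose and none fell, against 7.77% of all genes higher, with a median of 0.66. DIN10, a glycosyl hydrolase, had 134.28, 117.85 and 122.81 FPKM in line 1 and 57.16, 54.53 and 57.41 FPKM in wild type (1.13 ± 0.25, limma adjusted p = 0.0102). ASN1, the dark-induced asparagine synthetase, had 33.42, 37.56 and 32.36 FPKM in line 1 and 16.89, 10.61 and 23.74 FPKM in wild type (1.04, limma adjusted p = 0.0155). Without wild-type replicate 2 the starvation count was 3 and the call of ASN1 was lost.

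**Figure D4:**
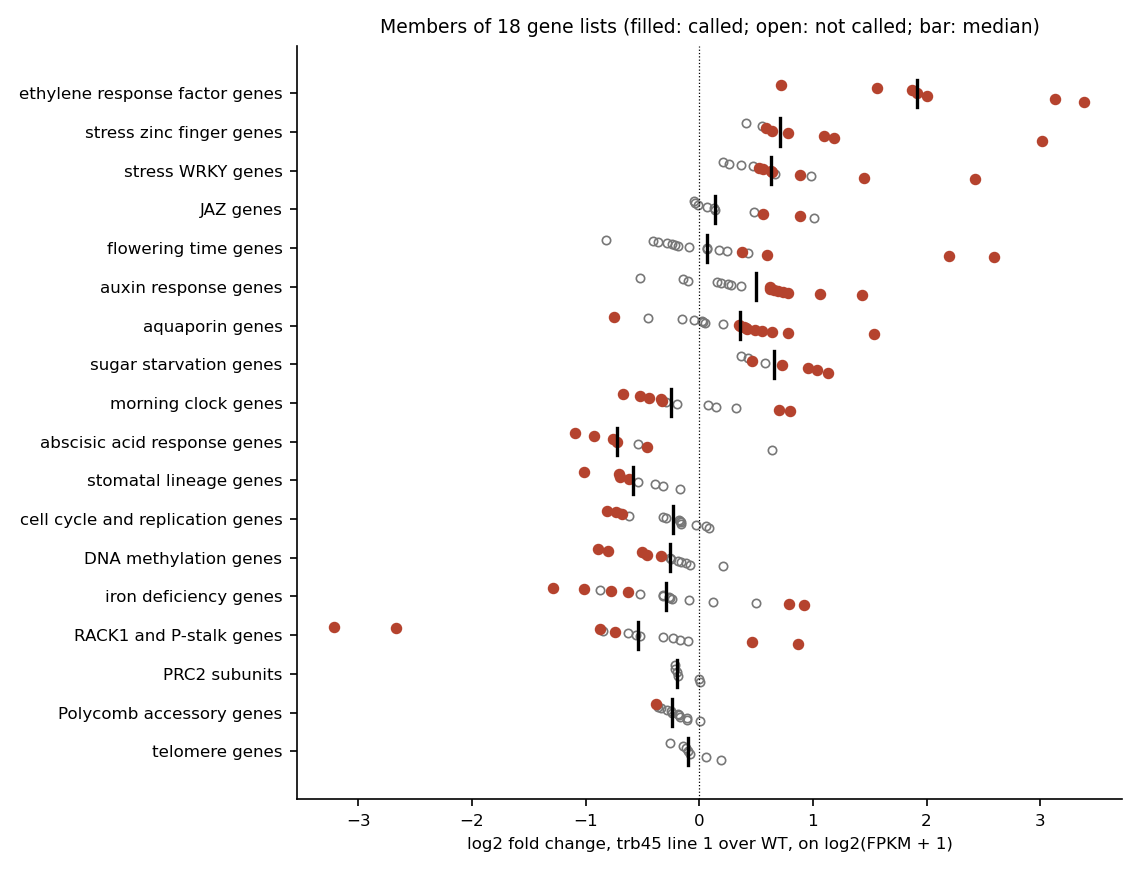
Log2 fold change (line 1 over wild type, log2(FPKM + 1) scale) of the tested members of 18 gene lists. Each dot is 1 gene, filled where it passed the test, and the bar is the list's median. The medians run from 1.92 for the ERF genes to -0.72 for the abscisic acid genes.

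Clock genes of the morning moved in both directions. Of 12 tested morning genes 2 rose and 5 fell, against 7.77% higher and 10.4% lower over all genes, with a median log2 fold change of -0.24. LHY, a core repressor of the clock, had 10.2, 8.82 and 9.0 FPKM in line 1 and 15.64, 14.09 and 16.59 FPKM in wild type (-0.67, limma adjusted p = 0.00234). Its partner CCA1 had 30.0, 34.77 and 37.38 FPKM in line 1 and 49.98, 47.51 and 49.28 FPKM in wild type (-0.52, limma adjusted p = 0.00959). RVE7 (EPR1), a related Myb gene, had 17.33, 18.87 and 17.12 FPKM in line 1 and 10.98, 8.5 and 10 FPKM in wild type (0.80, limma adjusted p = 0.000542), though it shares sequence with a paralog. Of 7 tested evening genes, with a median of -0.14, only PRR5 was called. PRR5, a repressor of CCA1 and LHY, had 11.25, 9.8 and 12.32 FPKM in line 1 and 5.38, 4.67 and 6.75 FPKM in wild type (0.88, limma adjusted p = 0.00444). The groups were apart for all 4 genes. The morning counts were 1 higher and 2 lower without wild-type replicate 3 and in the 6-library fit, 1 higher and 3 lower without wild-type replicate 1, and 2 higher and 3 lower without line 1 replicate 1. A single morning gene rose without line 1 replicate 2 or wild-type replicate 2, and median-ratio scaling gave 3 higher and 3 lower.

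More genes of the abscisic acid response fell than rose. Of 7 tested 5 fell and none rose, against 10.4% of all genes lower, with a median log2 fold change of -0.72. HAI2, a phosphatase induced by abscisic acid, had 0.4, 0.67 and 0.39 FPKM in line 1 and 1.63, 1.72 and 2.11 FPKM in wild type (-0.93, limma adjusted p = 0.000473). HAI1 (-0.72, limma adjusted p = 0.00581) fell likewise. RAB18, a dehydrin, had 64.01, 124.9 and 44.29 FPKM in line 1 and 180.72, 119.24 and 162.92 FPKM in wild type (-1.09 ± 0.29, limma adjusted p = 0.022), with overlapping groups. Without line 1 replicate 3, wild-type replicate 1 or wild-type replicate 3 the count of falls was 2 and the call of RAB18 was lost. The 6-library fit called 2 lower and 1 higher.

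Some genes of the stomatal lineage fell. Of 8 tested 4 fell and none rose, against 10.4% of all genes lower, with a median log2 fold change of -0.58. BASL, a polarity factor of asymmetric divisions, had 0.87, 1.0 and 0.68 FPKM in line 1 and 2.51, 2.62 and 3.04 FPKM in wild type (-1.01 ± 0.13, limma adjusted p = 0.000445). SPCH, the factor that starts the lineage, had 12.83, 9.55 and 8.96 FPKM in line 1 and 18.05, 16.05 and 18.19 FPKM in wild type (-0.70, limma adjusted p = 0.0208), a call that was lost without line 1 replicate 2 or 3 or wild-type replicate 1 or 3. Line 1 was below wild type in every library for both genes. The secreted peptides EPF1 (-0.71) and EPF2 (-0.62), which limit stomatal number, also fell. The count of falls was 2 without line 1 replicate 1, wild-type replicate 1 or wild-type replicate 2, and 1 without line 1 replicate 2 or wild-type replicate 3. In whole seedlings fewer cells of a type and less RNA per cell cannot be told apart.

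A minority of the DNA methylation and cell cycle genes fell. Of 13 tested genes of DNA methylation and demethylation 5 fell and none rose, against 10.4% of all genes lower, with a median log2 fold change of -0.26. ROS1 (DML1), a DNA demethylase, had 3.82, 2.69 and 3.58 FPKM in line 1 and 7.59, 5.86 and 7.85 FPKM in wild type (-0.89 ± 0.15, limma adjusted p = 0.00253). CMT3, a methyltransferase of CHG sites, had 4.45, 2.55 and 4.18 FPKM in line 1 and 7.27, 5.91 and 8.21 FPKM in wild type (-0.80 ± 0.16, limma adjusted p = 0.00541). The groups were apart for both, and replicate 2 was the lowest line 1 library. Without wild-type replicate 3 the count was 3. Of 14 tested cell cycle genes 3 fell and none rose: CYCD3;1, a D-type cyclin, had 13.25, 9.35 and 15.17 FPKM in line 1 and 20.84, 19.94 and 27.21 FPKM in wild type (-0.81, limma adjusted p = 0.0225). The mitotic kinases CDKB2;2 (-0.73) and CDKB1;1 (-0.68) also fell. Without replicate 3 of line 1 there were 6 falls, without wild-type replicate 2 there was 1, and without line 1 replicate 2, wild-type replicate 1 or wild-type replicate 3 there were 0.

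Iron genes moved in both directions. Of 16 tested 4 fell and 2 rose, against 10.4% lower and 7.77% higher over all genes, with a median log2 fold change of -0.29. AT1G47395, which encodes a short peptide of the iron deficiency response, had 17.35, 18.75 and 9.64 FPKM in line 1 and 30.18, 39.33 and 43.66 FPKM in wild type (-1.29, limma adjusted p = 0.00554). AT2G30766 had 94.19, 99.25 and 143.3 FPKM in line 1 and 227.62, 202.13 and 242.31 FPKM in wild type (-1.01, limma adjusted p = 0.00703). The rises were in FRO2, the root iron reductase, with 22.43, 19.41 and 25.82 FPKM in line 1 and 8.3, 13.95 and 12.7 FPKM in wild type (0.92, limma adjusted p = 0.0373), and in the iron transporter IRT1 (0.79, limma adjusted p = 0.0498). The calls of FRO2 and IRT1 were both lost without any one line 1 library, wild-type replicate 1 or wild-type replicate 3. The iron list had 1 rise and 3 falls without line 1 replicate 1, and 3 rises and 3 falls without wild-type replicate 2. Without wild-type replicate 3 there were 2 falls.

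Ribosomal protein genes fell in a somewhat larger share than all tested genes, though most were not called. Of 305 tested, a family singled out after its values were seen, 48 fell and 17 rose, against 10.4% lower and 7.77% higher over all genes, with a median log2 fold change of -0.11. The number that fell was between 29 and 56 and the number that rose between 7 and 26 when any one library was left out. The falls were 30 without wild-type replicate 1 and 29 without wild-type replicate 3, where 925 and 808 of the 18700 tested genes fell. The rises were 7 and 10 without these libraries, 10 without wild-type replicate 2 and 26 without line 1 replicate 1. In the 6-library fit 38 fell and 8 rose, against 873 lower and 924 higher of the 18700 tested genes. In a list of 14 tested RACK1 and stalk genes 4 fell and 2 rose, with a median of -0.54. Without line 1 replicate 3 there were 3 falls and 3 rises, with a median of -0.22, and 1 gene rose without line 1 replicate 1 or 2, without wild-type replicate 1 or 2 and in the 6-library fit. AT3G09200, a stalk base protein, had 233.01, 170.4 and 191.34 FPKM in line 1 and 348.96, 361.91 and 371.07 FPKM in wild type (-0.87, limma adjusted p = 0.00396). Its paralog AT2G40010 had 15.92, 14.07 and 18.09 FPKM in line 1 and 6.85, 8.99 and 9.19 FPKM in wild type (0.87, limma adjusted p = 0.00175). The groups were apart for both genes.

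Few genes of the Polycomb and telomere lists were called. None of the 6 tested PRC2 genes was called (median log2 fold change -0.19). Of 13 tested Polycomb accessory genes (median -0.24) only ELF6, a demethylase of H3K27me3, was called, against 10.4% of all genes lower. The median over all tested genes was -0.05. ELF6 had 3.96, 3.24 and 4.49 FPKM in line 1 and 5.79, 4.71 and 5.59 FPKM in wild type (-0.38, limma adjusted p = 0.0408), and the call was lost under median-ratio and quantile scaling, in the 6-library fit and without line 1 replicate 1 or 2 or wild-type replicate 1 or 3. The Polycomb accessory count was 4 without line 1 replicate 1, 2 without wild-type replicate 2, 3 with a replicate block, and 0 without line 1 replicate 2, wild-type replicate 1 or wild-type replicate 3 and in the 6-library fit. None of the 7 tested telomere genes (median -0.10), the 4 KNOX genes, the 4 cytokinin response genes or the 7 light signalling genes was called. A light signalling gene was called higher without line 1 replicate 3 and under median-ratio scaling, and 1 was called lower without line 1 replicate 2. A KNOX gene was called higher with a pseudocount of 0.1 and under quantile scaling. Among 30 tested photosynthesis genes 3 rose and 2 fell, and among 29 tested glucosinolate genes 4 rose and 2 fell, against 7.77% higher and 10.4% lower over all genes. Photosynthesis falls were 0 without line 1 replicate 2 or wild-type replicate 3 and in the 6-library fit, and 1 without line 1 replicate 1, wild-type replicate 1 or wild-type replicate 2. Glucosinolate genes were 2 higher and 4 lower without line 1 replicate 1, 2 higher and 2 lower without line 1 replicate 2, and 2 higher and 1 lower without wild-type replicate 1 or 3. The myrosinase TGG2 had 147.28, 77.11 and 162.98 FPKM in line 1 and 344.76, 293.6 and 307.77 FPKM in wild type (-1.35, limma adjusted p = 0.00276). Of 12 tested flavonoid genes 3 fell and none rose, against the same 10.4% (1 fall without wild-type replicate 2 and in the 6-library fit, 2 without any other single library), with F3H, an early enzyme of the pathway, at 14.66, 15.56 and 14.14 FPKM in line 1 and 23.98, 27.21 and 23.86 FPKM in wild type (-0.72, limma adjusted p = 0.000632). Of 3 tested root tip genes 1 fell (2 without line 1 replicate 1), SHR, a factor of radial root patterning, with 11.41, 8.26 and 7.49 FPKM in line 1 and 19.17, 15.71 and 19.15 FPKM in wild type (-0.93, limma adjusted p = 0.00151). The summed level of the root markers was 57.8, 49.3 and 43 FPKM in line 1 and 57.2, 57.4 and 61.3 FPKM in wild type. SCR made up most of this sum, and the markers did not move one way. EXPA7 had 6.91, 8.26 and 8.78 FPKM in line 1 and 5.48, 6.0 and 3.69 FPKM in wild type. PLT2 had 0.44, 0.4 and 0.31 FPKM in line 1 and 0.72, 0.71 and 0.79 FPKM in wild type. The groups overlapped for SCR and COBL9. The part of root content in the result was not tested.

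The genes in which replicate 3 departed from replicates 1 and 2 were mostly low in replicate 3. In replicate 3, 226 genes were at least 2-fold lower than in both others and 21 were at least 2-fold higher, and of these 23 and 2 were called over the 3 libraries. By the same measure replicate 1 was lower in 18 genes and higher in 8, and replicate 2 was lower in 7 and higher in 20. In 198 of the 226 genes replicates 1 and 2 lay within 2-fold of the wild-type mean, while replicate 3 lay below all wild-type libraries in 214. All 3 trb45 line 2 libraries lay below all wild-type libraries in 209 of the 226. A wider count gave the same order: of 168 genes in which replicates 1 and 2 were at least 2-fold from all 3 line 2 libraries, replicate 3 was nearer to line 2 in 161 and nearer to replicates 1 and 2 in 7. Among the 15 of these that also lay at least 2-fold from wild type while line 2 was near wild type, replicate 3 was nearer to replicates 1 and 2 in 4. The libraries are described by their labels throughout, and whether this library belongs with line 1 was not tested.

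**Figure D5:**
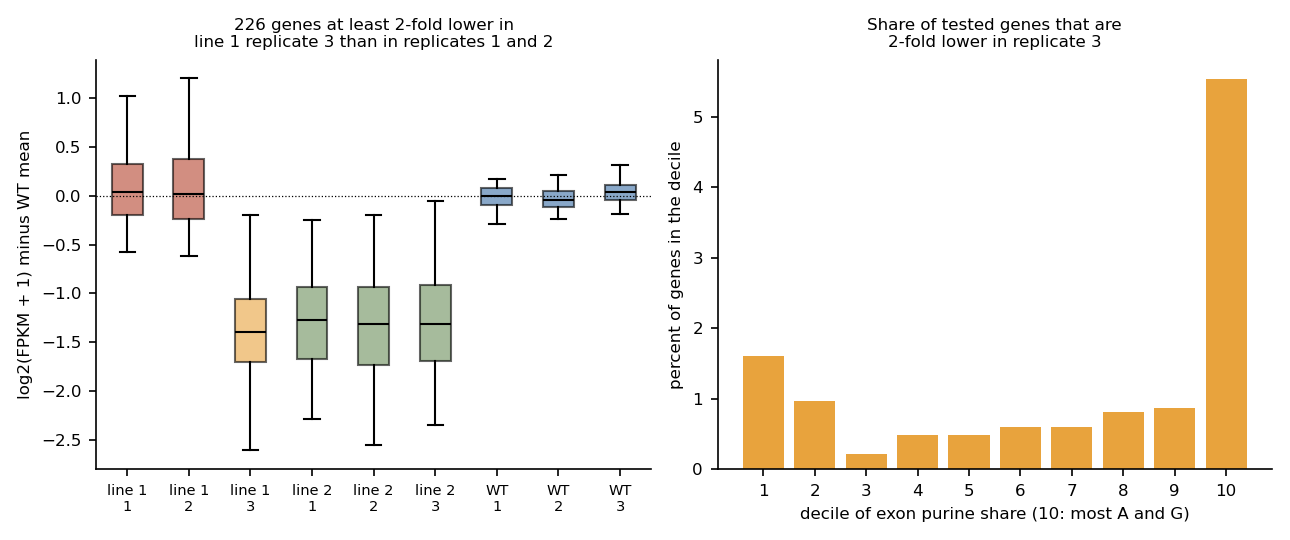
Left, log2(FPKM + 1) minus the wild-type mean for the 226 genes that were at least 2-fold lower in line 1 replicate 3 than in both other line 1 libraries, with 1 box per library (quartiles, whiskers from the 5th to the 95th percentile) for line 1, line 2 and wild type. Right, percentage of genes at least 2-fold lower in line 1 replicate 3, by decile of genes ordered by the purine share of the exons. The top decile reaches 5.53%, against 0.215% to 1.61% in the others.

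Genes with purine-rich exons were over-represented among those low in replicate 3, although most of the 226 lay outside the richest decile. The purine share of the exons had a median of 53.5% in the 226 genes and 50.5% in all genes. The longest purine run in the coding sequence had a median of 16 bases in the 226 genes and 12 bases in all genes. In the decile of genes richest in purine, 103 of 1862 (5.53%) were at least 2-fold lower in replicate 3. AT1G56660 (70.6% purine) had 28.1, 21.79 and 2.49 FPKM in line 1 and 23.58, 26.65 and 24.29 FPKM in wild type, and 2.91, 2.98 and 1.72 FPKM in line 2. AT5G53800 (64.3% purine) had 24.39, 19.32 and 7.36 FPKM in line 1 and 29.07, 25.53 and 29.36 FPKM in wild type, and 6.95, 6.47 and 7.33 FPKM in line 2. AT5G28630 (65.1% purine) had 6.29, 9.07 and 1.23 FPKM in line 1 and 2.9, 4.39 and 3.0 FPKM in wild type. Replicates 1 and 2 were above the wild-type level in AT5G28630 and close to it in AT1G56660, while replicate 3 was the lowest of the 6 libraries in all 3 genes. These 3 genes were chosen after their values were seen. The longest purine runs in the coding strands of AT5G28630 and AT5G53800 are shown as examples of this composition.
AT5G28630, coding strand, RefSeq TAIR10.1: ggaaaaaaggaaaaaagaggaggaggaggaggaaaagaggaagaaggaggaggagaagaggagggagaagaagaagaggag
AT5G53800, coding strand, RefSeq TAIR10.1: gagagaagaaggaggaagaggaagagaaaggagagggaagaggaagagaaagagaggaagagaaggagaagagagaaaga

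Other loci also differed widely between the line 1 libraries. The pseudogene AT1G05135 had 29.84, 33.16 and 3.48 FPKM in line 1 and 11.46, 13.29 and 12.02 FPKM in wild type, and 3.11, 3.18 and 3.32 FPKM in line 2. AT1G21313 had 20.95, 9.31 and 0.26 FPKM in line 1 and 8.72, 12.19 and 14.74 FPKM in wild type, and 0.09 FPKM in each line 2 library. The long non-coding RNA gene AT3G22121 had 56.22, 12.06 and 0.64 FPKM in line 1 and 22.57, 27.18 and 95.8 FPKM in wild type. None of these 3 genes was called over the 3 line 1 libraries. Several seed genes were higher in replicate 3. Of 9 tested in a list of seed storage and seed regulator genes none was called. Of these, 6 were at least 2-fold higher in replicate 3 than in both others. SESA3, a seed albumin, had 1.11, 1.49 and 114.2 FPKM in line 1 and 0.0, 1.67 and 0.0 FPKM in wild type. The summed level of CRA1, SESA1, SESA3 and OLEO1 was 4.36, 3.67 and 232 FPKM in line 1 and 1.42, 19.7 and 14.9 FPKM in wild type.

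Called genes were spread over all 5 chromosomes, at 17.4%, 19%, 17.8%, 17.6% and 19.3% of the tested genes of chromosomes 1 to 5. Gene length went with the direction of change: genes called higher had a median exon length of 1490 bases and genes called lower 2039 bases. In the decile of genes with the longest exons 19.9% were called lower and 1.83% higher, while in the other deciles the share called lower was between 6.02% and 13.1%. In the decile richest in purine 19.4% were called lower and 4.56% higher, against at most 11.2% lower in the other deciles. The part of length and composition in the single results was not tested.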

How the data were processed

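RNA was measured in 12 seedling libraries of 4 groups with 3 replicates each, and 6 libraries enter the comparison described here. The authors deposited FPKM values per gene, and the line 1 values, written with a decimal comma, were read as numbers. STAR 2.7.1, DESeq2 and the TAIR10 genome are named in the submitters' processing notes. Further settings, such as the use of strand, are not given in the sources used here. FPKM are not counts, so log2(FPKM + 1) was tested with limma 3.58.1 in R 4.3.3. Fold changes and 2-fold limits are on this scale. The added 1 makes them smaller than the FPKM ratios in genes with low values. The fit covered all 12 libraries, with a variance trend and Benjamini-Hochberg adjustment over 18700 genes. Tested genes were listed for all 4 groups and had at least 1 FPKM in at least 3 libraries. Genes with an adjusted p under 0.05 were called. "Apart" means that the line 1 and wild-type libraries did not overlap. Exact permutation tests used scipy 1.17.1. Depth is not stated and was estimated from the spacing of low FPKM values, so it carries no interval per gene. Gene names, positions and sequences came from RefSeq TAIR10.1, which held 20020 of the 20114 shared gene IDs. The fit was tested on simulated data.

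Named genes were TRB1 to TRB5, the 15 largest rises and 15 largest falls with a mean of at least 5 FPKM that were apart and also called without replicate 3, and the 6 called genes in which replicate 3 departed most. They also included up to 4 called members per gene list, the 3 genes most lower and most higher in replicate 3, and the 5 neighbours on each side of TRB4 and TRB5. The members and gene lists were chosen with earlier results of these data known. The XTH, expansin, ribosomal, small nucleolar RNA and lipid-transfer families, the motif search and the genes named for purine content were chosen after values were seen. Alternatives covered the threshold, filter, pseudocount, scaling, variance model, samples in the fit, replicate block and each library left out.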

Additional observations from a re-analysis of the deposited data

How the results depend on the processing

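The number of genes called was 1220 at an adjusted p under 0.01 and 358 with a 2-fold minimum. It was 1797 with only the line 1 and wild-type libraries in the fit and 1791 when genes listed for both of those groups were tested. With 1 library left out it lay between 1602 and 4183. For genes also apart in all libraries these numbers were 1220, 356, 1797 and 1791, and between 1602 and 4176. Genes called and 2-fold in each library numbered 348 with a pseudocount of 0.1 and 166 to 292 with 1 library left out. On the log2(FPKM + 1) scale TRB4, at a log2 fold change of -0.96, falls just short of a 2-fold minimum. Its value was -1.11 with a pseudocount of 0.1 and lay between -1.10 and -0.77 with 1 library left out. Among the 139 other named genes, 115 were called and none of these changed direction under any alternative. Most of the 115 were named because they were called, and groups that are apart cannot change direction when a library is left out. The unchanged direction is therefore no test of these calls. Without wild-type replicate 3, 35 of the 115 lost the call, and without line 1 replicate 3, 17 did. The 15 largest rises and 15 largest falls were named only if they kept the call without line 1 replicate 3.

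Genes that were not called changed sign in places. With 1 library left out, TRB3 ranged from -0.31 to 0.05, AT1G21313 from -1.81 to 0.25, AT1G05135 from -0.17 to 1.29, CRU3 (CRC) from -0.64 to 2.31, DRG1 from -0.03 to 0.09, AT1G17500 from -0.04 to 0.09 and AT1G72810 from -0.22 to 0.14. The positive end of TRB3 and AT1G21313, the negative end of CRU3 and the positive end of AT1G05135 are the values without line 1 replicate 3. CAD1 ranged from -0.17 to 0.06 and AT1G17490 from -0.10 to 0.08. AT1G17500 was at -0.01 without line 1 replicate 1 and without line 1 replicate 3. AT1G17490 was at 0.02 under both other scalings, and AT1G72810 at 0.04 under median-ratio and 0.02 under quantile scaling. The cause was not tested. The median of all genes was -0.05 as deposited, -0.01 after median-ratio and -0.02 after quantile scaling.

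The replicate numbers did not pair the libraries: same-numbered line 1 and wild-type libraries deviated together with r = 0.0156, 0.0389 and -0.0727 over 11595 genes. With a replicate block 3510 genes were called, 3354 of them apart and 177 2-fold in each library, and TRB4 (-0.96, limma adjusted p = 0.00449) and TRB5 (-1.59, limma adjusted p = 9.58e-06) kept their calls.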

Other observations

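Small nucleolar RNA genes, whose products guide the modification of ribosomal RNA, included several that were called lower in line 1. Of 17 tested 7 fell and 1 rose, against 10.4% lower and 7.77% higher over all genes, with a median log2 fold change of -0.72. AT1G75163 had 4.78, 4.24 and 1.03 FPKM in line 1 and 13.83, 15.49 and 11.13 FPKM in wild type (-1.86 ± 0.40, limma adjusted p = 0.0081). AT1G74456 had 22.29, 18.63 and 4.54 FPKM in line 1 and 31.65, 43.73 and 55.82 FPKM in wild type (-1.68, limma adjusted p = 0.0143). AT2G35744 had 13.45, 22.02 and 3.14 FPKM in line 1 and 32.31, 33.62 and 52.58 FPKM in wild type (-1.83 ± 0.45, limma adjusted p = 0.0151). Replicate 3 was the lowest library for all 3, and without it the list had 5 falls and a median of -0.44. The falls numbered 4 without wild-type replicate 1, 3 without wild-type replicate 3 and 2 with only the line 1 and wild-type libraries in the fit. The call of AT2G35744 was lost without wild-type replicate 3 and in that fit. U3B, which acts in ribosomal RNA cleavage, rose (0.70, limma adjusted p = 0.00952). The libraries were made from polyA RNA, and mature small nucleolar RNAs largely lack polyA tails.

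Some further genes changed alone. KIN1, a cold-induced gene, had 2.67, 5.53 and 3.2 FPKM in line 1 and 8.67, 9.56 and 7.98 FPKM in wild type (-1.06, limma adjusted p = 0.00243), the only one of 9 tested cold genes that passed. Without line 1 replicate 2 the cold list had 3 falls, and under median-ratio or quantile scaling it had 1 rise as well. SPX1, a sensor of phosphate, rose by 0.67 (limma adjusted p = 0.00705), the only one of 5 tested phosphate genes. Of the 8 tested heat genes HSFA2 (-0.52) and HSP101 (-0.52) fell. Without line 1 replicate 3 or wild-type replicate 2 there were also 2 rises, without line 1 replicate 1 there was 1, and without wild-type replicate 3 the call of HSFA2 was lost. The 813 gene IDs listed for wild type and not for line 1 included 40 with at least 1 FPKM in a library, and the 183 listed for line 1 and not for wild type included 57. These genes were not tested.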
